A study of Homo sapiens with 68 samples.

Results

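hnRNPI is the polypyrimidine tract-binding protein PTBP1. Its RNA contacts were described here from 4 of the 68 libraries of the series, chosen by their labels: the groups hnRNPI_50k_noPAGE and hnRNPI_50k_noPAGE_RecJ, with 2 replicates each. They were compared with the same pair of groups of hnRNPA1, hnRNPc and RBFOX2, 12 libraries in all. The method, TLC-CLIP, crosslinks protein to RNA with ultraviolet light, immunoprecipitates the protein and sequences the fragments attached to it. All 16 libraries came from HEK293T, an established line derived from human embryonic kidney, with 50000 cells and 0.005 U of RNase each. In none of them were the complexes separated on a polyacrylamide gel (noPAGE), and the RecJ groups had an added exonuclease step that removes adapter. The antibodies were SH54 for hnRNPI, 4B10 for hnRNPA1, an antibody against hnRNPc, and an antibody named RBM9 for RBFOX2. Omitting the gel means that RNA of complexes other than the target's was not removed by size, in any of the 4 proteins. The labels do not say whether replicates are separate cultures, so p-values measure the spread between these libraries, which may be technical.

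PTBP1 binds pyrimidine-rich stretches of pre-mRNA through RNA recognition motifs. It is known as a repressor of exons, including exons that neurons use, and most of its contacts lie in introns. hnRNPA1 is a splicing repressor of broad specificity, hnRNP C coats nascent transcripts at uridine tracts, and RBFOX2 binds GCAUG elements near alternative exons. Because most of the length of a long human gene is intron, the span of a gene and the place of a peak along it are informative for such proteins.

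Each library has a list of peaks with a gene identifier per peak. The hnRNPI lists held 353415 and 341973 peaks without RecJ and 342529 and 335107 with it. The hnRNPA1 lists were longer, at 450313 to 523402, the hnRNPc lists held 379280 to 487908, and the RBFOX2 lists held 157375 to 161434. The number of reads behind each list is unknown, so peaks were compared as shares of their own list. The unit for a gene is peaks per 100000 peaks of the library. A gene's span runs from the first to the last peak listed for it in any of the 68 lists, on the hg19 build, so its ends are those of the listed peaks and not those of an annotated transcript. The files do not pair the identifiers with gene names, and genes are given by position.

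hnRNPI peaks lay in long genes. Genes spanning over 200 kb held 35.5%, 35.4%, 35.4% and 35.3% of the peaks of the 4 hnRNPI libraries. The same genes held 29.6% to 30.6% in hnRNPA1, 25.3% to 26.3% in hnRNPc and 17.6% to 17.8% in RBFOX2. All 4 hnRNPI libraries were thus above all 12 others, by 10.8 percentage points on average (exact two-sided permutation test over 1820 relabellings, p = 0.0011, adjusted p = 0.00247 over 9 measures). That test compares these 4 libraries with these 12, which stem from only 3 proteins. Against 1 protein at a time, with 4 libraries on each side, the smallest p that the relabellings allow is 0.0286, and each of the 3 proteins gave it for this measure.

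The step between neighbouring span classes shows where the difference begins. Between 50 and 100 kb, hnRNPI held 19.2% of its peaks, hnRNPA1 20.5%, hnRNPc 22.5% and RBFOX2 19.1%. Between 100 and 200 kb it held 25.1%, close to 24.3% in hnRNPA1 and 24.5% in hnRNPc. From 200 to 500 kb it held 25.5%, against 22.0%, 19.5% and 13.6% in hnRNPA1, hnRNPc and RBFOX2. Over 500 kb it held 9.93%, against 8.16%, 6.51% and 4.10%.

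At the short end the order was turned. Genes spanning under 10 kb held 2.50% to 2.60% of hnRNPI peaks, 3.25% to 3.45% of hnRNPA1 peaks, 3.03% to 3.07% of hnRNPc peaks and 11.2% to 11.4% of RBFOX2 peaks. hnRNPI was lowest in every comparison of libraries (exact permutation test, adjusted p = 0.0353). Leaving out any 1 library of hnRNPI or RBFOX2 ended that call, with adjusted p of 0.199 to 0.201 by the same exact test, while the difference stayed between 2.84 and 3.60 percentage points below the others.

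**Figure D1:**
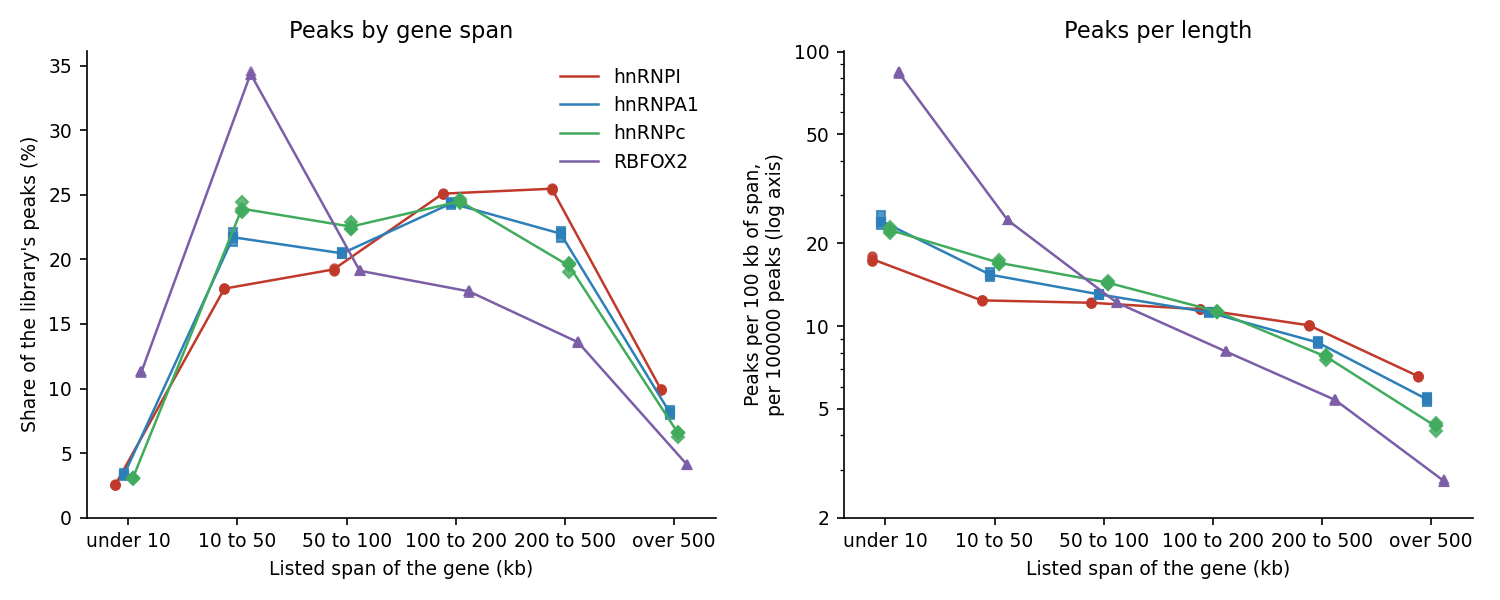
Left, the share of each library's peaks (percent) by the listed span of the gene (kb); right, peaks per 100 kb of span per 100000 peaks of the library, on a log axis, over the genes tested. Points are the 4 libraries of each protein and lines join their means; hnRNPI has the lowest share under 10 kb and the highest over 200 kb, and the flattest line per length.

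Per length, peaks of every protein were still sparser in longer genes. In hnRNPI libraries, genes under 10 kb carried 17.5 ± 0.32 peaks per 100 kb of span (SD, n = 4) and genes over 500 kb carried 6.56 ± 0.022, both per 100000 peaks. This is a ratio of 2.67 between the shortest and the longest class. The ratio was 4.46 in hnRNPA1, 5.19 in hnRNPc and 30.9 in RBFOX2. Over the hnRNPI libraries it ranged from 2.63 to 2.75, below the lowest of the other libraries, 4.22. hnRNPI peaks were thus spread more evenly over gene length than those of the other proteins, rather than denser in long genes than in short ones.

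Gene by gene, 11841 genes had at least 5 peaks in at least 4 of the 16 libraries and were tested with limma on log2(share + 0.5). Compared with the mean of the 3 other proteins, 3738 genes were higher in hnRNPI, which is 31.6% of the genes tested, and 5285 were lower, which is 44.6% (limma, adjusted p under 0.05). The median difference over all genes was -0.17 on the log2 scale, so the higher genes were fewer and took larger shares. A stricter call required the threshold against each protein. It was met by 1542 higher genes (13.0% of those tested) and 2575 lower ones (21.7%). Of the higher genes, 1136 differed from the mean of the others by over 2-fold and 323 by over 4-fold. Of the lower genes, 2009 and 591 did. When the read numbers in the peak names were summed per gene in place of peaks, the split turned: 3432 genes were higher and 2047 lower than each protein, against 1542 and 2575 by peaks. Without the filter on peaks the 2 counts nearly met, with 2584 of 19938 genes higher and 2633 lower than each protein.

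Span separated the 2 sets of genes. The 1542 higher genes had a median span of 130 kb and together held 27.1% of hnRNPI peaks. The 2575 lower genes had a median span of 22.6 kb and held 6.98%. Over all genes tested the median span was 37.4 kb. Among 1789 genes under 10 kb, 40 were higher than each protein and 521 lower. Among 5250 genes of 10 to 50 kb, 306 were higher and 1595 lower. The 2 counts came close between 50 and 100 kb, with 268 higher and 343 lower of 2212. Beyond 100 kb they reversed, with 400 higher and 92 lower of 1564 genes up to 200 kb, and 403 higher and 21 lower of 842 genes up to 500 kb. Of the 184 genes over 500 kb, 125 (67.9%) were higher and 3 lower.

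The gradient held against each protein, with different slopes. Over genes of more than 500 kb, the median log2 difference of hnRNPI was 0.46 to hnRNPA1, 0.91 to hnRNPc and 1.84 to RBFOX2. Under 10 kb it was -0.51, -0.25 and -1.86. The comparisons share the hnRNPI libraries and are given side by side only.

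**Figure D2:**
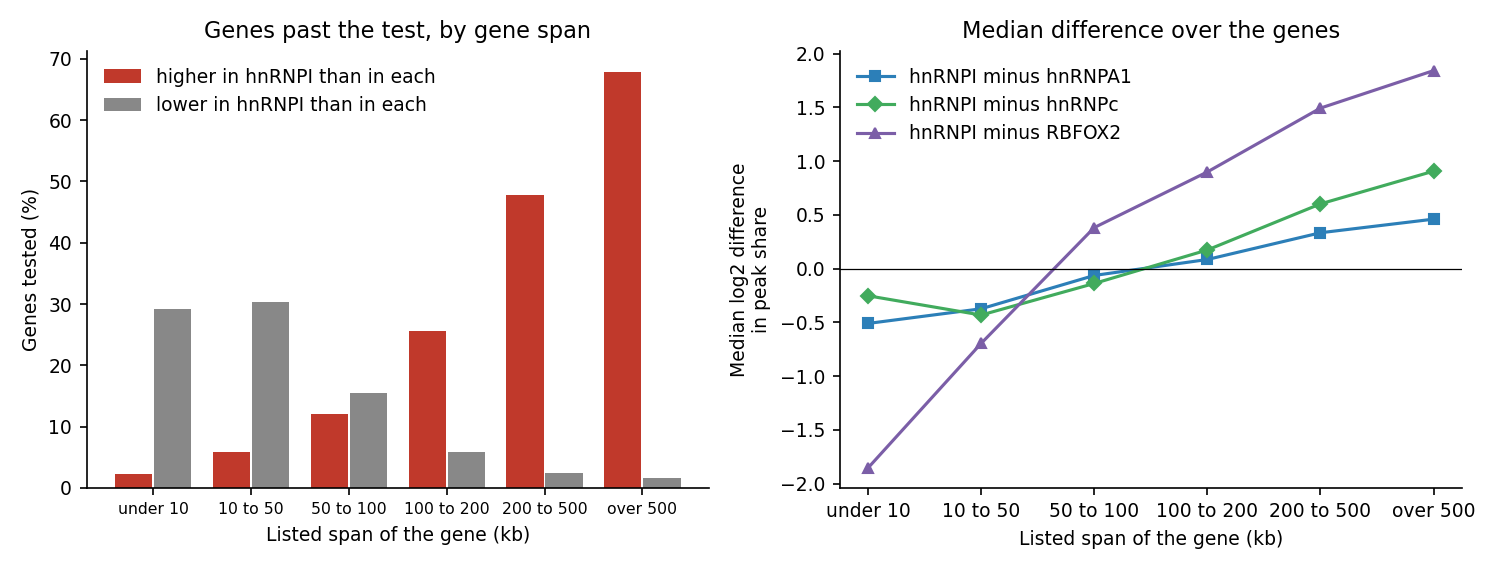
Left, the percent of genes tested in each span class (kb) that were higher or lower in hnRNPI than in each of the 3 other proteins (limma, adjusted p under 0.05 against all 3); right, the median log2 difference in peak share over the genes of the class. Higher genes make up 67.9% of the class over 500 kb, and the medians pass from below 0 to above 0 with span for all 3 proteins.

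Libraries made with the gel step were read beside these tests. Their shares entered none of them, but their peaks helped to set the gene spans, which were drawn from all 68 lists. The groups titled 50k_lowRNase have 2 libraries per protein. In the 2 hnRNPI libraries with the gel, genes over 200 kb held 35.5% and 34.8% of peaks, against 30.6% and 30.3% in hnRNPA1, 25.1% in the longer hnRNPc list and 23.2% and 21.9% in RBFOX2. Of the 1542 higher genes, 1267 (82.2%) had both of these hnRNPI libraries above all 6 libraries of the other proteins, and 0 had both below. Over all genes tested, 16.9% had both above. Of the 2575 lower genes, 341 (13.2%) had both below all 6, where the background was 3.88%. An hnRNPc list of only 3268 peaks was among those 6, and without it 1738 lower genes (67.5%) had both below, with a background of 20.2%.

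Without crosslinking, as read from the titles, long genes held a smaller share. The 2 hnRNPI libraries titled noUV_noPAGE, with 44086 and 78945 peaks, had 23.5% and 24.7% of their peaks in genes over 200 kb. Genes under 10 kb held 10.5% and 8.63% there. The noUV_noPAGE libraries of the other proteins were also below their crosslinked ones in genes over 200 kb, with 23.6% and 25.7% in hnRNPA1, 21.0% and 22.7% in hnRNPc and 8.90% and 9.33% in RBFOX2. The lists without crosslinking were shorter than the crosslinked ones, and the part of list length in these values was not tested.

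The genes with the most hnRNPI peaks were all very long. The 10 with the highest mean share spanned 593 to 1894 kb and together held 1.81% of hnRNPI peaks. The first, at chr7:69063931-70257822 on the plus strand, held 893, 816, 829 and 803 peaks in the 4 libraries. Its mean share was 243 ± 6.5 per 100000 (SD, n = 4), compared with 226 in hnRNPA1, 196 in hnRNPc and 140 in RBFOX2. Per length it carried 20.4 hnRNPI peaks per 100 kb, above 81.3% of the genes tested. The second, at chr3:59735115-61237122 on the minus strand, had a share of 216 ± 4.2 in hnRNPI, 195 in hnRNPA1, 131 in hnRNPc and 88.6 in RBFOX2.

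All 10 were higher in hnRNPI than the mean of the other proteins, with log2 differences of 0.15 to 0.72 (limma, adjusted p at most 0.0017). Of these 10 genes, 6 were higher than in each protein and 4 were not, where 67.9% of all tested genes over 500 kb and 13.0% of all genes tested were higher than in each. Those 4 lay at chr13:93879120-95058745, chr2:140994704-142888587, chr10:52751104-54056534 and chr3:173114195-174001446, and in all 4 the mean share in hnRNPA1 was above that in hnRNPI. The gene at chr13:93879120-95058745 had a share of 204 ± 3.0 in hnRNPI and 225 in hnRNPA1. The gene at chr18:36787263-37380268 stood apart without crosslinking: 415 and 360 peaks per 100000 in the noUV_noPAGE hnRNPI libraries, against 162 ± 8.4 in the crosslinked ones. In the other 9 genes both libraries without crosslinking were below all 4 crosslinked ones.

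The 100 genes with the most peaks in each library held 9.92% to 9.98% of hnRNPI peaks, 9.09% to 9.27% in hnRNPA1, 8.21% to 8.59% in hnRNPc and 7.35% to 7.46% in RBFOX2 (exact permutation test, adjusted p = 0.00247). This order did not hold at equal list length. Among the 100000 peaks with the smallest p of each library, the top 100 genes held 12.04% in hnRNPI, 13.02% in hnRNPA1, 13.24% in hnRNPc and 7.47% in RBFOX2, and the exact test over 4 and 12 libraries gave an adjusted p of 0.516. With peaks of p below 1e-05 the adjusted p of the exact test was 0.303.

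The number of genes with any peak did not set hnRNPI apart. It was 13886 to 14231 in hnRNPI, 14683 to 15104 in hnRNPA1, 13387 to 14439 in hnRNPc and 13296 to 13392 in RBFOX2 (exact permutation test, adjusted p = 0.923). Across the 11841 genes, ranks of the shares correlated between pairs of hnRNPI libraries with Spearman's rho of 0.977 to 0.978. With hnRNPA1 libraries rho was 0.809 to 0.828, with hnRNPc 0.746 to 0.784 and with RBFOX2 0.404 to 0.425. These correlations are across genes, which are not independent replicates, and they share gene length and RNA abundance.

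The largest rises were moderate shares set against lower ones, near 0 in RBFOX2 but not always in hnRNPA1. The 12 genes with the largest rises over the mean of the other proteins, among those higher than each and without overlap between libraries, had hnRNPI shares of 5.32 to 16.0 per 100000. Their log2 differences ran from 2.90 to 3.41, with standard errors of at most 0.28 (limma, adjusted p at most 7.2e-08). Against hnRNPA1 alone they ran from 1.43 to 3.41, and against RBFOX2 alone from 2.64 to 4.78. Shares in hnRNPA1 reached 4.91 per 100000, while those in RBFOX2 were 0 to 0.63. Differences to shares near 0 depend on the constant of 0.5. Of the 12, 10 spanned over 100 kb, as did 21.9% of all genes tested, and 3 lay on the X chromosome, which held 3.21% of all genes tested. Among all genes tested, 13.6% had their 4 hnRNPI libraries above all 12 others.

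ENSG00000028277.15, at chr19:42591406-42700699 on the minus strand, had the largest rise. It had 22, 18, 20 and 18 peaks in the hnRNPI libraries, and among the 12 others 3 libraries listed 1 or 2 peaks and 9 listed none. Its log2 difference was 3.41 ± 0.21 (SE; limma, adjusted p = 5.5e-10). The peak of most reads that all 4 hnRNPI libraries shared lay at chr19:42698480-42698577 with 15, 24, 19 and 14 reads, and none of the 12 libraries of the other proteins had a peak overlapping it. In the libraries without crosslinking this gene held 18.1 and 26.6 peaks per 100000, above its 5.67 ± 0.44 with crosslinking.

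ENSG00000204131.6, at chrX:71132615-71354670 on the plus strand, had 24, 35, 32 and 33 peaks in hnRNPI. hnRNPA1 libraries listed 2 to 6, hnRNPc 0 to 2 and RBFOX2 0 to 2, a log2 difference of 3.25 ± 0.24 (SE; limma, adjusted p = 4.4e-09). Without crosslinking it held 18.1 and 17.7 peaks per 100000, again above its crosslinked 9.05 ± 1.6. In 4 of the 12 genes both libraries without crosslinking were above every crosslinked hnRNPI library. In 7 of them both were below.

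Among the latter were the genes with the highest hnRNPI shares of the set. The gene at chr10:95754840-96087522 had 59, 52, 51 and 58 peaks in hnRNPI, 18 to 28 in hnRNPA1, 5 to 13 in hnRNPc and 0 or 1 in RBFOX2, and no peak in either library without crosslinking. The gene at chr3:120629078-121113662 had 55, 56, 42 and 44 peaks in hnRNPI and 9 to 13 in hnRNPA1, and 0 and 1 without crosslinking. The gene at chr12:81671712-82153185 had 46, 43, 43 and 50 peaks in hnRNPI and was listed at 0 in all 4 RBFOX2 libraries. The gene at chr1:48761958-48937331 had 51, 51, 51 and 52 hnRNPI peaks, with a shared peak at chr1:48908112-48908320 of 72, 64, 45 and 54 reads that none of the 12 libraries of the other proteins overlapped. Of the 11 genes with a peak shared by all 4 hnRNPI libraries, that peak was overlapped in none of the 12 other libraries in 10. The genes were chosen for low shares in those libraries, so this count is no test of the sites. The same count over all hnRNPI peaks was not made. With 100000 peaks per library, 1 library of another protein overlapped on average 5.48% to 8.99% of hnRNPI peaks.

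The largest falls were in shorter genes that the other proteins all covered. The 12 genes spanned 13.4 to 64.4 kb, and 3 of them had no peak in any of the 4 hnRNPI libraries. Log2 differences ran from -4.17 to -3.29, with standard errors of at most 0.23 (limma, adjusted p at most 1.7e-09); they depend on the constant of 0.5 where a gene is listed at 0. Among all genes tested, 17.7% had their 4 hnRNPI libraries below all 12 others.

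ENSG00000197182.8, at chr22:46455534-46509403 on the plus strand, had 1 peak in 1 hnRNPI library and none in the other 3. hnRNPA1 listed 28 to 34 peaks, hnRNPc 26 to 30 and RBFOX2 27 to 42, and the log2 difference was -4.17 ± 0.13 (SE; limma, adjusted p = 2.8e-12). ENSG00000103126.10, at chr16:337637-402033 on the minus strand, had 1, 2, 0 and 1 peaks in hnRNPI, 19 to 29 in hnRNPA1, 44 to 69 in hnRNPc and 21 to 26 in RBFOX2. The gene at chr1:1449678-1470024 was listed at 0 in all 4 hnRNPI libraries and in both hnRNPI libraries with the gel, with 8 to 14 peaks in hnRNPA1, 20 to 33 in hnRNPc and 21 to 26 in RBFOX2. The gene at chr10:105062802-105110627 had 1, 1, 1 and 3 hnRNPI peaks against 52 to 56 in hnRNPA1 and 75 to 84 in hnRNPc. In the gel libraries, all 12 rises had both hnRNPI libraries above all 6 others, and 11 of the 12 falls had both below the 5 others that remain without the list of 3268 peaks.

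**Figure D3:**
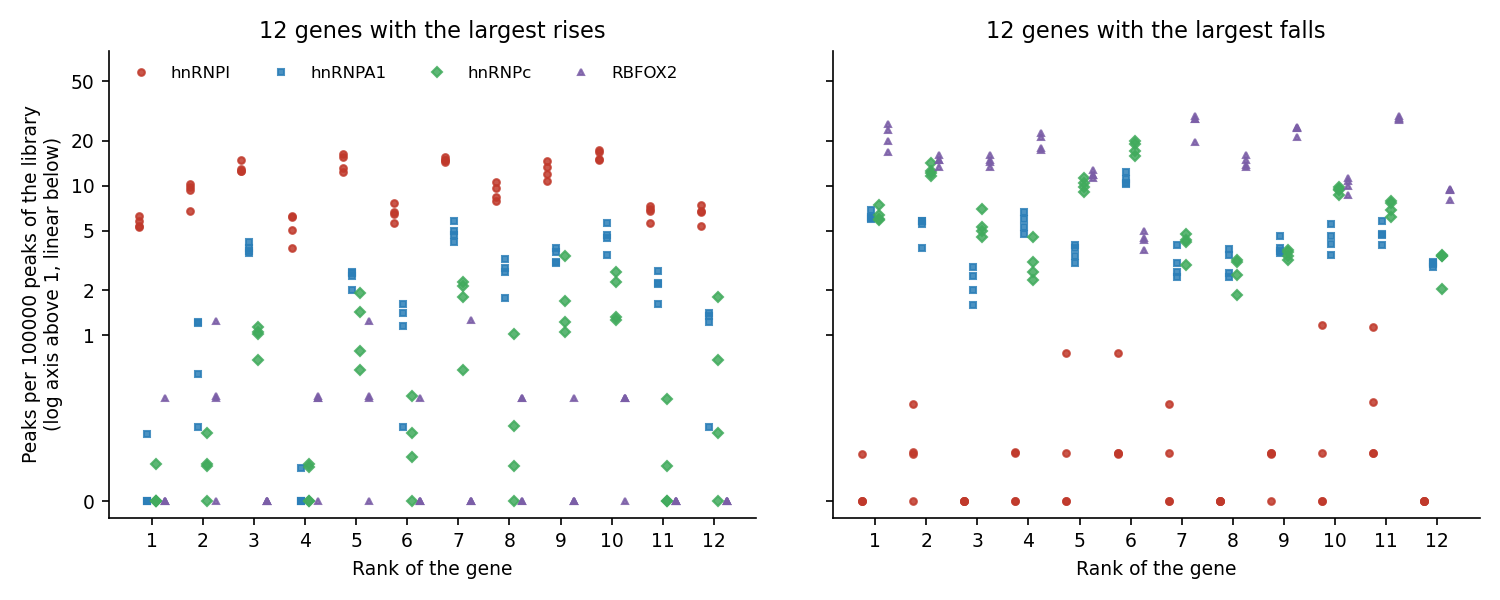
Peaks per 100000 peaks of the library for the 12 genes with the largest rises (left) and the 12 with the largest falls (right), by rank, on an axis that is logarithmic above 1 and linear below; each point is 1 library and each protein has 4. Every hnRNPI point lies above the points of the other proteins on the left and below them on the right, as the rule for choosing these genes required.

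Along the gene, hnRNPI peaks thinned out from the 5′ to the 3′ end with no rise at the 3′ end. Each gene of at least 5 kb was cut into 10 equal parts of its span, called deciles. The first decile held 12.8% of hnRNPI peaks in the lowest library and 12.9% in the highest, and the share fell at every step to 7.67% in the ninth decile and 7.11% in the last. In the 3 other proteins the last decile lay above the ninth: it went from 8.0% to 8.80% in hnRNPA1, from 7.25% to 8.91% in hnRNPc and from 10.2% to 13.4% in RBFOX2. The last decile held 7.09% to 7.16% of peaks in the hnRNPI libraries and at least 8.71% in the others (exact permutation test, adjusted p = 0.028).

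Pooled over gene spans, the first decile was also lower in hnRNPI than in all 12 others (exact permutation test, adjusted p = 0.00247). hnRNPA1 held 13.8% to 14.0% of its peaks there, hnRNPc 13.9% to 14.0% and RBFOX2 14.9% to 15.6%. With both ends lower, the middle was fuller. The fifth decile held 10.2% of hnRNPI peaks, 9.54% of hnRNPA1 peaks, 9.52% of hnRNPc peaks and 8.17% of RBFOX2 peaks. The mean relative position, where 0 is the 5′ and 1 the 3′ end, was 0.445 to 0.446 in hnRNPI. This lay between hnRNPc, at 0.442 to 0.444, and hnRNPA1, at 0.452 to 0.453, and below RBFOX2, at 0.495 to 0.498 (exact permutation test, adjusted p = 0.108).

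**Figure D4:**
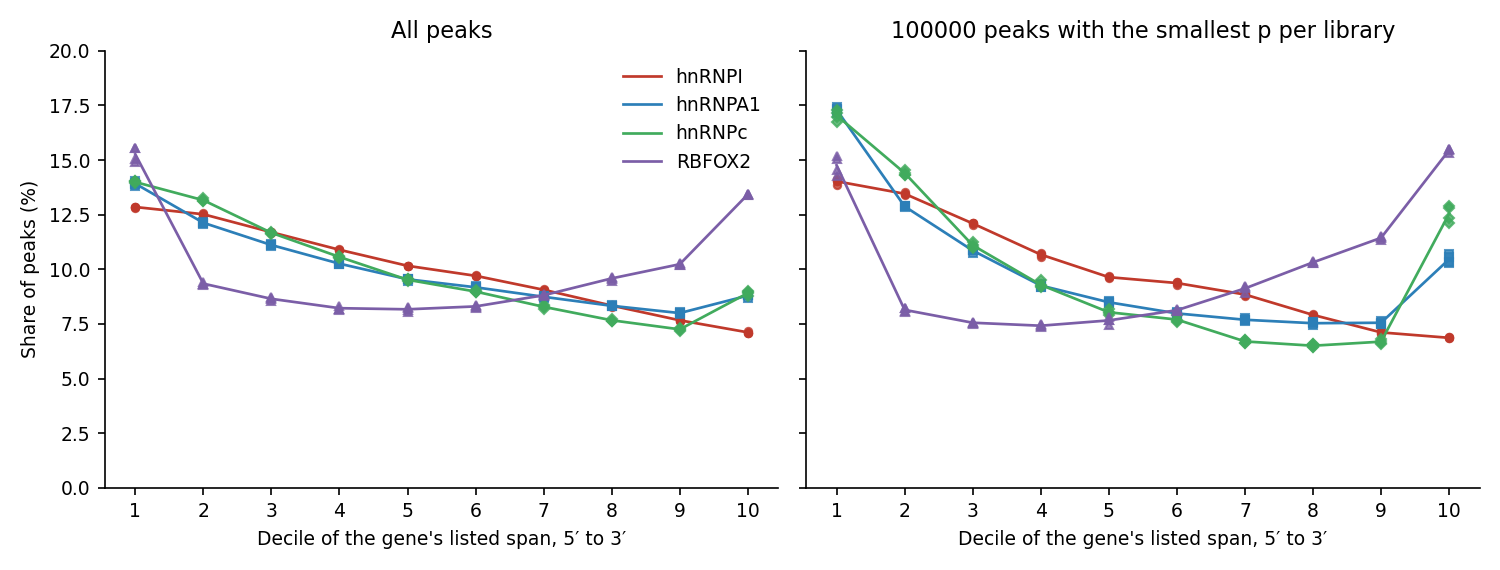
Share of peaks (percent) in each decile of the gene's listed span from 5′ to 3′, for all peaks (left) and for the 100000 peaks with the smallest p of each library (right). Points are libraries and lines join the means of 4; hnRNPI falls to 7.11% in the last decile while the other 3 proteins rise between the ninth and the last.

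Near the 3′ end the difference was larger in proportion. Within 2 kb of the end lay 2.65% ± 0.028 of hnRNPI peaks (SD, n = 4), 3.95% ± 0.050 of hnRNPA1 peaks, 4.58% ± 0.10 of hnRNPc peaks and 8.12% ± 0.018 of RBFOX2 peaks. Pooled over gene spans, the hnRNPI libraries were below all 12 others (exact permutation test, adjusted p = 0.028). In the gel libraries 2.58% and 2.72% of hnRNPI peaks lay there. Without crosslinking the share was 9.91% and 9.13%, and the last decile held 14.2% and 14.4%. In the noUV_noPAGE libraries of the other proteins the last decile held 12.2% to 17.9%, also above their crosslinked libraries. At the 5′ end hnRNPI was not the lowest: within 1 kb of the start lay 1.5% of its peaks, 1.79% in hnRNPA1, 1.23% in hnRNPc and 6.57% in RBFOX2.

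Gene span changed the picture at both ends. In genes of 50 to 100 kb the last decile held 8.09% of hnRNPI peaks, against 10.3% in hnRNPA1, 10.1% in hnRNPc and 16.7% in RBFOX2. In genes over 500 kb it held 4.41% to 4.54% in the hnRNPI libraries, above 3.95% to 4.14% in hnRNPA1 and 3.63% to 3.98% in hnRNPc, and below RBFOX2 at 4.81% to 5.11%. In the same genes the first decile held 18.9% of hnRNPI peaks, compared with 21.7%, 23.7% and 26.1% in hnRNPA1, hnRNPc and RBFOX2. In shorter genes hnRNPI was not the lowest there. From 10 to 50 kb the first decile held 10.7% in hnRNPI, 11.5% in hnRNPA1, 9.78% in hnRNPc and 13.4% in RBFOX2. Under 10 kb it held 9.56%, 9.62%, 7.47% and 14.9% in the same order. Within 2 kb of the 3′ end hnRNPI was lowest in each class from 10 to 500 kb. From 10 to 50 kb it held 7.68%, against 9.27%, 9.69% and 12.1% in hnRNPA1, hnRNPc and RBFOX2. Under 10 kb it held 30.2%, against 28.9%, 30.9% and 26.7%. Over 500 kb its libraries, at 0.17% to 0.21%, overlapped hnRNPA1, at 0.14% to 0.18%, and were below hnRNPc and RBFOX2. These shares within span classes were not tested.

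hnRNPI peaks most often had a close neighbour. In the 4 libraries, 41.6%, 41.4%, 41.4% and 41.3% of peaks had another peak of the same gene within 100 nt. This held for 29.1% to 31.2% of hnRNPA1 peaks, 30.4% to 34.4% of hnRNPc peaks and 33.7% to 34.6% of RBFOX2 peaks. The mean difference was 9.07 percentage points (exact permutation test, p = 0.000549, the smallest these relabellings allow; adjusted p = 0.00247). Over the full lists, which differ in length, the median gap between neighbouring peaks did not separate hnRNPI from hnRNPc. It was 430 to 445 nt in hnRNPI, 413 to 499 nt in hnRNPc, 545 to 595 nt in hnRNPA1 and 575 to 603 nt in RBFOX2. At equal list length, with 100000 peaks per library, hnRNPI had the smallest gap, at 176 to 185 nt. It was then 229 to 306 nt in hnRNPc, 272 to 305 nt in RBFOX2 and 468 to 523 nt in hnRNPA1. The shares of peaks with a neighbour within 100 nt were then 58.2% in hnRNPI, 41.1% in hnRNPA1, 47.4% in hnRNPc and 44.5% in RBFOX2. In the gel libraries 38.7% and 43.5% of hnRNPI peaks had such a neighbour, and without crosslinking 37.0% and 32.7% did. The noUV_noPAGE libraries of the other proteins were lower, at 25.2% to 31.2%, so hnRNPI was highest without crosslinking as well.

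Chains of such neighbours were called runs. Runs of at least 3 peaks held 20.0% ± 0.12 of hnRNPI peaks (SD, n = 4), 10.3% ± 0.53 of hnRNPA1 peaks, 13.1% ± 1.2 of hnRNPc peaks and 17.1% ± 0.37 of RBFOX2 peaks. For runs of at least 5 peaks the order changed: RBFOX2 held 7.27%, hnRNPI 5.63%, hnRNPc 3.26% and hnRNPA1 1.56%. At equal list length hnRNPI was first again, with 13.9% against 11.5%, 9.80% and 4.76% in RBFOX2, hnRNPc and hnRNPA1.

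**Figure D5:**
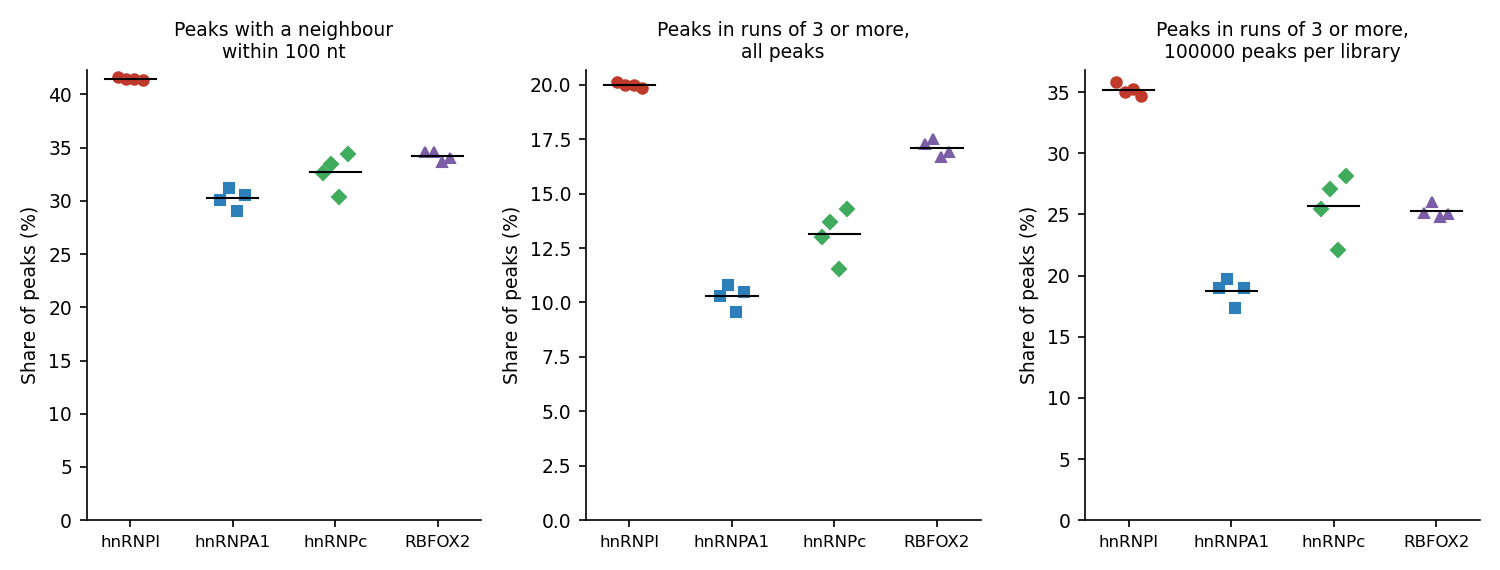
Share of peaks (percent) with another peak of the gene within 100 nt (left), in runs of at least 3 such neighbours over all peaks (middle) and over the 100000 peaks with the smallest p (right). Each point is a library, bars are means of 4; the hnRNPI libraries lie above all 12 others in all 3 panels, at 41.3% to 41.6% in the left one.

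The first hnRNPI library held 481 runs of at least 8 peaks, in 412 genes, with a run counted once for each gene that lists it. In 421 of them (87.5%) each of the other 3 hnRNPI libraries had more peaks in the window than any of the 12 libraries of other proteins. Windows chosen the same way in the first library of RBFOX2 did so in 88.4% of 432 cases, in hnRNPc in 82.6% of 367 and in hnRNPA1 in 64.5% of 107, so such separation was not particular to hnRNPI. In the gel libraries, 402 of the 481 windows (83.6%) had both hnRNPI libraries above all 6 others. In 96 of the 481 (20.0%) neither hnRNPI library without crosslinking had a peak, so most windows had peaks without crosslinking as well. Over the windows, the higher of those 2 counts had a median of 3 peaks. As shares of these shorter lists, both libraries without crosslinking were above all 4 crosslinked ones in most, not all, of the top-ranked windows. That ranking was by the lowest count over the 4 hnRNPI libraries.

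The window with the most hnRNPI peaks was on the X chromosome, at chrX:73046741-73047819 on the minus strand. It held 90, 70, 73 and 84 hnRNPI peaks in 1079 nt, against 2 in every hnRNPA1 library and 0 in every hnRNPc and RBFOX2 library. Yet the whole gene, chrX:73040560-73072550, held 105 to 124 hnRNPI peaks, 130 to 150 in hnRNPA1, 175 to 202 in hnRNPc and 62 to 64 in RBFOX2. Most hnRNPI peaks of that gene thus lay in this window, where the other proteins had almost none, and the gene's total share was not higher than in each protein. The gel libraries listed 47 and 67 hnRNPI peaks in the window. Without crosslinking 30 and 45 peaks were listed there. As shares these were 68.05 and 57.0 peaks per 100000, above the 20.5 to 25.5 of the 4 crosslinked libraries.

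A window at chr12:110824369-110825535, on the minus strand, was filled within a gene of low hnRNPI share. It held 19, 19, 22 and 21 hnRNPI peaks, 2 to 5 in hnRNPA1, 5 to 7 in hnRNPc and 0 in RBFOX2. The gene around it held 22 to 28 hnRNPI peaks in all, 39 to 48 in hnRNPA1 and 76 to 101 in hnRNPc, and was lower in hnRNPI than in each protein (log2 difference to their mean -0.95). Without crosslinking 18 and 22 peaks fell in this window, which is 40.8 and 27.9 per 100000, against 5.38 to 6.42 in the crosslinked libraries. The window at chr13:79973207-79975363 held 17, 19, 21 and 18 hnRNPI peaks, at most 6 in any other library, and 0 in both libraries without crosslinking.

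Of the 481 windows, 63 (13.1%) lay in genes whose share was higher in hnRNPI than in each protein, close to the 13.0% of all genes tested that were called so. Another 34 (7.07%) lay in genes lower than in each, against 21.7% of all genes tested, and 384 lay in genes with neither call. A window needed a run of at least 8 hnRNPI peaks, which many genes with few hnRNPI peaks could not hold. All genes tested are therefore no matched background, and no depletion or enrichment of windows can be read from these shares. The window ranked next by its lowest count over the 4 hnRNPI libraries was mitochondrial and showed no excess of hnRNPI. It lay at chrM:1706-2561 and held 23 to 26 hnRNPI peaks, 33 to 41 in hnRNPA1, 30 to 34 in hnRNPc and 24 to 32 in RBFOX2. The example windows were chosen after their values were seen.

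At single positions hnRNPI lists repeated each other closely. With 100000 peaks per library, 78.2% of the peaks of an hnRNPI library overlapped a peak of another hnRNPI library on the same strand by at least 1 nt. They overlapped peaks of an hnRNPA1 library in 5.48% of cases, of an hnRNPc library in 7.0% and of a RBFOX2 library in 8.99%. The effect of RecJ on the difference between hnRNPI and the others was tested gene by gene. The difference with RecJ minus that without passed in 0 of 11841 genes (limma), and 443 genes (3.74%) had an unadjusted p under 0.05.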

How the data were processed

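Peak lists of 16 of the 68 libraries were compared. The low-RNase libraries with the gel step and those titled noUV_noPAGE were read beside them, for every protein. Per the submitters' processing notes, reads were handled with bcl2fastq, STAR 2.7.3a and UMI-tools 1.0.1 on hg19. The caller's settings were not given in the sources used here. The deposited lists were called per library and have 8 columns, among them a p-value that the authors' caller gave each peak, used here only to order and filter peaks, and deposited positions. The last number in a peak name, at least 4 throughout, was taken as a read count of the peak, which no source states. Depth is unknown. Between 5.52% and 7.13% of a library's peaks are listed under several genes at the same position, and each listing was counted.

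Gene shares (peaks per 100000, plus 0.5, log2) were fitted with limma 3.58.1 (R 4.3.3) over 8 group means with a mean-variance trend and Benjamini-Hochberg adjustment. On simulated data for 11841 genes, 74 of 100 genes raised 2-fold and 50 of 100 genes lowered to 0.5-fold were recovered, and 4 unchanged genes were called. There, all proteins shared 1 mean per gene except in the 200 changed genes, and only the comparison with the mean of the others was scored. In the real lists the proteins differed in most genes, so these are not error rates of the calls reported here. The 9 position measures were tested by exact two-sided permutation of 4 against 12 libraries (Python 3.11.15, scipy 1.17.1), adjusted over the 9. Named genes were the 12 largest rises and falls against the mean of the others, among genes past the threshold against each protein, with no overlap of libraries and a mean share of at least 5 on the higher side, and the 10 highest hnRNPI shares. Members and lists were chosen with earlier results of these data known. Lists of genes by symbol, and the check of the cell line by its markers, were not used, since 0 identifiers matched the names table (RefSeq, GRCh38.p14). No sequence is shown because no genome of the build was used here.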

Additional observations from a re-analysis of the deposited data

How the results depend on the processing

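Of the 9 position measures, 8 kept their direction under every alternative run, and the number of genes did not. Counts of genes are given as higher or lower than the mean of the other proteins, or than each of them. Summing reads gave 6113 higher genes than the mean and 3432 than each. The 100000 peaks with the smallest p left 7813 genes, of which 3395 were lower than the mean and 1582 than each. Without a filter, 2584 of 19938 genes were higher and 2633 lower than each. The noPAGE libraries alone gave 1013 genes higher than each and the RecJ libraries alone 1021, with fewer samples. Of the calls, 37.5% were higher than each in the main setting and 62.6% with reads. The percentage was 46.6% at 100000 peaks, 48.3% at p below 1e-05 and 49.5% without a filter. The cause was not tested. Leaving out 1 library at a time gave 3442 to 3834 genes higher and 4984 to 5375 lower than the mean, and 1345 to 1648 higher and 2374 to 2622 lower than each.

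With 1 condition alone, 2 hnRNPI libraries face 6 others and none of the 9 measures passes. For noPAGE alone the differences were -1.63 points in the first decile, -3.28 in the last, -2.91 within 2 kb of the 3′ end, 10.7 over 200 kb, -3.34 under 10 kb, 1.62 in the top 100 genes and 8.75 for neighbours. For RecJ alone they were -1.46, -3.25, -2.89, 10.8, -3.33, 1.65 and 9.38. The exact test's adjusted p was 0.0918 for each. The top 100 genes differed by 0.79 points at 100000 peaks and 1.04 at p below 1e-05. The mean relative position passed at 100000 peaks (-0.035, adjusted p = 0.0353) and with each gene weighing the same (-0.017, adjusted p = 0.0275), both by the exact test. The number of genes reversed at p below 1e-05, with 459 more genes in hnRNPI.

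Without 1 library at a time the differences were -0.021 to -0.016 in relative position, -1.60 to -1.44 points in the first decile, -3.42 to -2.98 in the last, -3.05 to -2.67 within 2 kb of the 3′ end, 10.1 to 11.3 over 200 kb, -3.60 to -2.84 under 10 kb, 1.55 to 1.72 in the top 100 genes, 8.77 to 9.27 for neighbours and -111 to 53.6 genes. The replicate number as a block gave 3731 genes higher and 5275 lower than the mean, 1546 higher and 2584 lower than each, and changed no call on position. Deviations of same-numbered libraries correlated by -0.018 to 0.060 over 28 pairs of groups, 0 of them over 0.1. They gave no sign of pairing by number. Pairing is not excluded, since libraries of a shared culture need not deviate alike gene by gene. Of 223 alternative values of the named genes, 220 kept direction and call. The other 3 concern genes of the highest shares, at chr13:93879120-95058745 when peaks less than 30 nt apart were joined (0.065) or with RecJ alone (0.12), and at chr18:36787263-37380268 when joined (0.030). Leaving out positions listed under several genes, an alternative chosen after seeing the data, changed no call on position and left 11327 genes tested, 1410 of them higher and 2444 lower than each. Unknown depth limits all counts of peaks.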
